A study of Rattus norvegicus with 12 samples.

Results

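The genes described here carry proteins into and through the endoplasmic reticulum (ER), the compartment where secreted proteins are made and folded. They were chosen as 50 symbols by known role, with earlier results of these data already known. A gene's value was the mean of the probe sets that the platform annotation gives to that symbol alone. Of the 50 symbols 47 were measured, among 14217 genes in all. Srp54, Ern1 and Sec23a had no probe set under that symbol. The 47 genes comprised 21 of translocation into the ER, 14 of folding, 7 of the stress response and 5 of ER exit and retrieval. Affymetrix arrays measured abdominal mammary gland RNA of female Sprague-Dawley rats on a diet of casein, the main protein of milk, or of soy protein isolate (SPI) from postnatal day 30 to 64. Every rat lost its ovaries on day 50, and with them most of its own estrogen, and was then given 17β-estradiol (E2) by mini-osmotic pump, or vehicle, over 14 days. These 2 diets with and without the hormone made 4 groups, called casein, soy, casein plus E2 and soy plus E2, of 3 arrays of pooled RNA each. The series asks what soy protein isolate and E2 do alone and together. The titles of the casein plus E2 pools name only estradiol, and their diet was read from the treatment protocol. The number of animals in a pool is not given in the sources used here, and the labels leave unsaid whether separate animals went into each pool. The p-values therefore measure only how far pools spread, which may be technical.

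A secretory protein begins to be made in the cytosol, where the signal recognition particle binds its signal sequence and brings the ribosome to the Sec61 channel of the ER membrane. Signal peptidase cuts the signal off, oligosaccharyltransferase adds sugar chains, and chaperones such as Hspa5 (BiP) and the protein disulfide isomerases fold the chain. When unfolded protein builds up, the sensors Ern1 (IRE1), Atf6 and the kinase PERK start the unfolded protein response, in which the transcription factors Xbp1, Atf6 and Atf4 raise chaperone, degradation and translocation genes. Mammary secretory cells enlarge their ER as they begin to make milk, and Xbp1 is known to be needed for that in the lactating gland. All measured values below are log2 values centred on each probe set's median over the arrays. They show differences between samples and carry no expression level, so levels of different genes cannot be compared and absence of a transcript cannot be read from them.

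Many ER chaperone genes carry the ER stress element in their promoters, a sequence at which Atf6 and Xbp1 proteins are known to act. Promoter windows from RefSeq (build GRCr8), running from 250 bases before to 50 bases after the start and 300 bases long, were matched for 41 of the 50 symbols. The element was searched on both strands as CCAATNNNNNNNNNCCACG. It was found in 7 of the 41 matched genes (17.1%), in 22 of all 33469 windows (0.0657%) and in 17 of 11733 measured genes with a window (0.145%). ER chaperone genes are already known to carry this element, so its share among the members is no test. These matches are shown because they mark which chaperone genes share the sequence. Capitals mark the fixed letters, and each is written in the direction of the motif.
Hspa5: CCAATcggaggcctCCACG
Xbp1: CCAATcgcagacggCCACG
Hsp90b1, farther from the start: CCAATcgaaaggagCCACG
Hsp90b1, nearer the start: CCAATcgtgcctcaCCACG
Calr: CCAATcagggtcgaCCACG
Canx: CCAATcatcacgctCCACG
Creld2: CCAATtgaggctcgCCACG
Dnajc3: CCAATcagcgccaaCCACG
A shorter element, ATTGGNCCACG, was added after the data had been seen. It was in 3 of the 41 genes (7.32%), in 17 of all windows (0.0508%) and in 11 of 11733 measured genes with a window (0.0938%). The holders were Dnajb11, Herpud1 and Hyou1, which held 2 copies. The element TGACGTGG was in Hyou1, where it overlapped the shorter element, and in Sec23a, against 199 of all windows (0.595%). Over measured genes with a window it was in 105 of 11733 (0.895%). The windows of Xbp1, Hspa5 and Herpud1 follow, because in the E2 average the first was called higher, the second had a change within its error and the last was called lower.
Xbp1, chr14:84604373-84604672, plus strand: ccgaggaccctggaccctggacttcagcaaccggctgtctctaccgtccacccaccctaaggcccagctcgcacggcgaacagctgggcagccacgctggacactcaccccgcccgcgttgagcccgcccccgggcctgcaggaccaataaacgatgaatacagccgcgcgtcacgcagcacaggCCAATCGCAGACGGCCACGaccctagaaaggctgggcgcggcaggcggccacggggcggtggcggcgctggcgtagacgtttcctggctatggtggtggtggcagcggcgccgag
Hspa5, chr3:38452766-38453065, plus strand: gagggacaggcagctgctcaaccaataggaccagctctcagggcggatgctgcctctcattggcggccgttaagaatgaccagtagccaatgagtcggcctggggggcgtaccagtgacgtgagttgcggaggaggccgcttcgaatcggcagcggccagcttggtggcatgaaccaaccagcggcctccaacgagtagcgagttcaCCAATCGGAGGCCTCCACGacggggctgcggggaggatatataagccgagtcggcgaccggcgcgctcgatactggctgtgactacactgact
Herpud1, chr19:10614658-10614957, minus strand: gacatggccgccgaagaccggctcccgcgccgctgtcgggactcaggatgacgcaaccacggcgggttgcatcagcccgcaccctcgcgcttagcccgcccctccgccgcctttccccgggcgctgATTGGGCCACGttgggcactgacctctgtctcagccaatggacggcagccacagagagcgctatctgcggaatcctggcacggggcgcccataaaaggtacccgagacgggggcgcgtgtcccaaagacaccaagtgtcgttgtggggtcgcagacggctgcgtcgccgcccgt
Capitals mark the ER stress element in Xbp1 and Hspa5 and the shorter element in Herpud1. The element begins 65 bases before the start in Xbp1, 43 in Hspa5 and 124 in Herpud1. A match describes the letters in the window and does not show that a factor binds there.

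**Figure D1:**
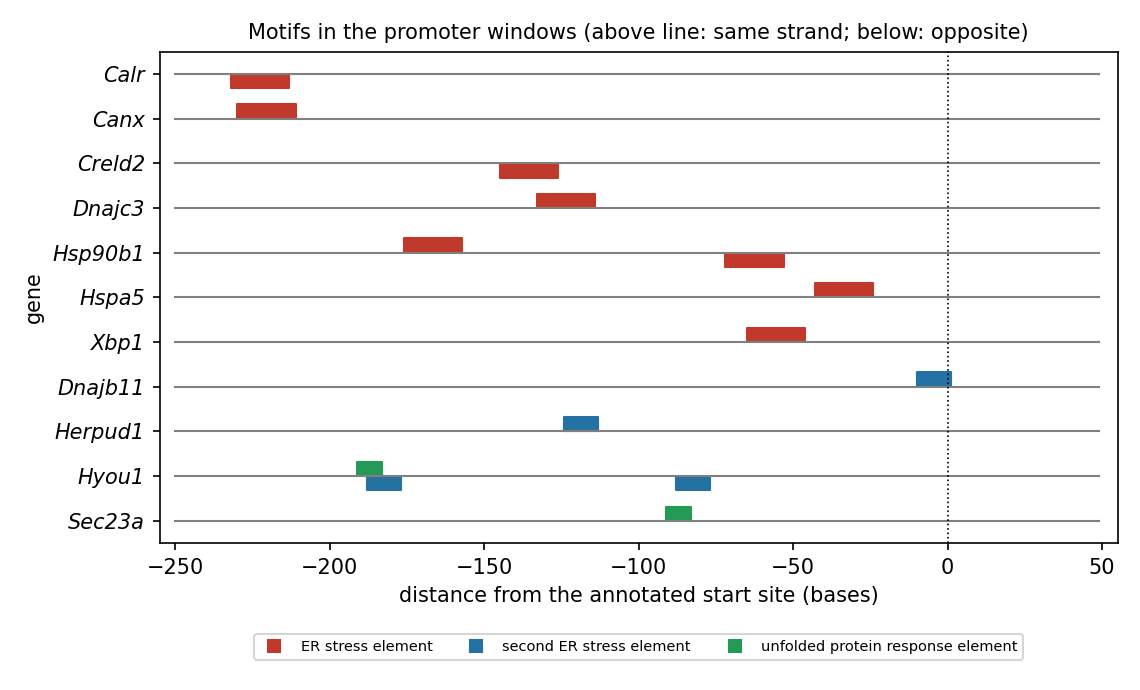
Positions of the ER stress element, the shorter second element and the unfolded protein response element in the 300-base promoter windows of the 11 genes that held any of them, in bases from the start site (0). In Xbp1, Hspa5 and Dnajb11 the elements lie within 65 bases of the start, and in Calr and Canx they lie 232 and 230 bases before it.

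Several arrays stood apart before any comparison. Casein plus E2 pools 2 and 3 were nearly identical (SD of their difference 0.163, against at least 0.301 in the 65 other pairs of arrays, and 0 probe sets apart by over 1), so they were averaged into 1 sample, leaving n = 2 there and n = 3 elsewhere. Milk transcripts (6 of 6 measured) had mean values from -3.02 to -0.60 in the 6 samples without E2 and from 0.52 to 1.30 in the 5 with it, and luminal and secretory epithelial markers (8 of 8) from -1.52 to -0.11 and from 0.02 to 0.62. Markers of other cells ran the other way. Adipocyte markers (6 of 6) ran from 0.05 to 1.19 without E2 and from -1.92 to 0.03 with it, mast cell markers (6 of 6) from 0.28 to 1.08 and from -1.66 to -0.22, and fibroblast markers (6 of 6) from 0.05 to 0.34 and from -0.83 to 0.01. In bulk glands, fewer cells of a type and less RNA per cell cannot be told apart, and the part of these shifts in the results below was not tested. Hepatocyte markers (7 of 8) stood at 6.02 in casein pool 3 and at most at 0.38 elsewhere, and 1 label field names hepatic expression while the source names mammary gland. Skeletal muscle markers (7 of 7) stood at 3.38 in casein pool 2 and 3.59 in soy pool 2, and at most at 1.77 elsewhere. Lymphocyte markers (6 of 8) stood at 2.47 in soy pool 3 and 2.04 in soy pool 2, and plasma cell markers, of cells that secrete antibody, at 1.54 in soy pool 3. Of the 12 arrays, 6 had positive and 6 negative mean values over 18 spike-in probe sets, and all 3 casein arrays were among the positive. Centring on medians makes a near-even split likely, so the sign alone does not mark separate kinds of array. Casein pool 2 stood apart at 1.11, and the other arrays ran from -0.22 to 0.26.

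E2, averaged over both diets, left most of the ER genes without a detected change and moved 6 of 47 (12.8%) past the threshold, with 4 higher and 2 lower. Xbp1, the factor that expands the secretory pathway, rose by 0.37, together with Sec61b, Ssr4 and Sec11c of the translocation machinery, by 0.35 to 0.42. Ddit3 (CHOP), a transcription factor of prolonged ER stress that promotes cell death, and Herpud1, a membrane protein of ER-associated degradation, both fell by 0.46. No folding gene and no ER exit gene passed. The share called among the members was near the background: over all genes 6.73% were called higher and 5.51% lower, 12.2% together. A call was an adjusted p under 0.05 by limma, with Benjamini-Hochberg adjustment over all 14217 genes. The median change was 0.02 over the 47 genes and 0.004 over all genes, and 26 of 47 members (55.3%) and 51.1% of all genes lay above 0. Changes were also small in size, with a median of 0.11 in either direction, against 0.14 over all genes.

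**Figure D2:**
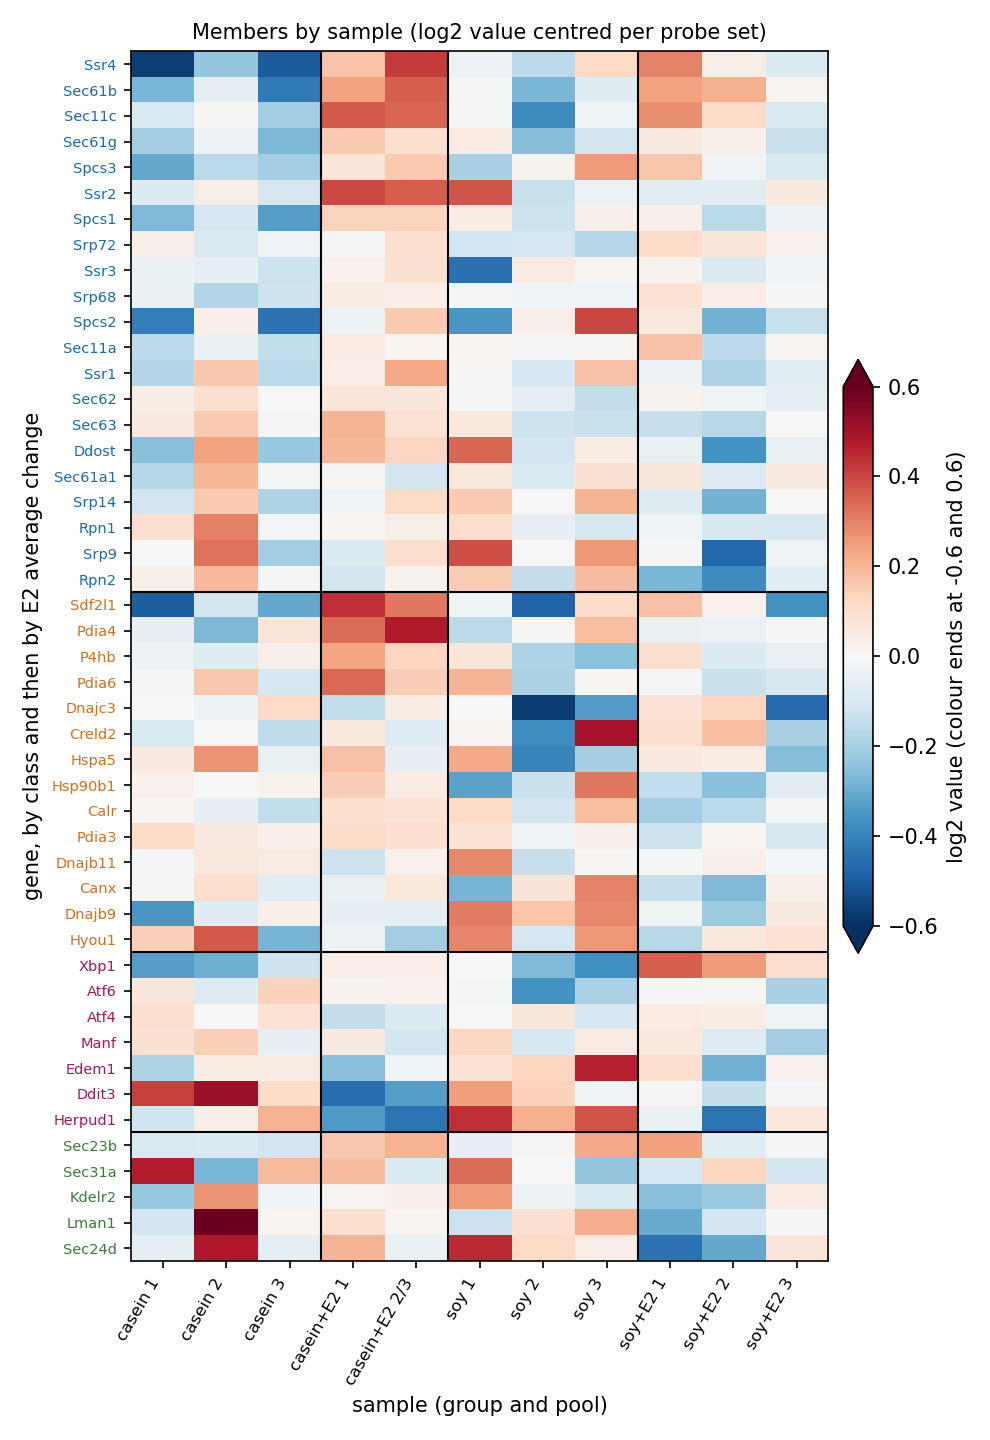
Centred log2 value of each of the 47 measured genes (rows, by class) in each of the 11 samples (columns, by group), as colours. Xbp1, Sec61b and Srp68 are higher in all 5 samples with E2 than in all 6 without it, while the rows of the folding genes show no split shared by the class.

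Among the translocation genes, 3 of 21 were called in the E2 average (14.3%, against 12.2% of all genes) and all 3 were higher. A further 3 higher and 1 lower passed only an unadjusted p under 0.05. With the called genes, 33.3% of the class was under that p, against 29% of all genes. Their median change was 0.09, and 16 of 21 (76.2%) lay above 0. Sec61b is the small beta subunit of the Sec61 channel. Its values were -0.27, -0.05 and -0.42 in casein, 0.24 and 0.36 in casein plus E2, -0.01, -0.28 and -0.08 in soy, and 0.24, 0.21 and 0.01 in soy plus E2. The 5 E2 samples all lay above the 6 others, with soy plus E2 pool 3 only just above soy pool 1. The E2 average was 0.41 ± 0.09 (SE), 1.33-fold, with an adjusted p of 0.0218 by limma. Sec61a1, the subunit that forms the pore, gave -0.17, 0.20 and -0.01 in casein, 0.01 and -0.11 in casein plus E2, 0.06, -0.09 and 0.09 in soy, and 0.07, -0.08 and 0.05 in soy plus E2. The groups overlapped throughout, and the average of -0.03 had a 95% interval of -0.21 to 0.15 and turned sign without casein pool 2 (0.02). Sec61g, the gamma subunit, had an average of 0.20. Whether the 3 subunits differed from each other in their response was not tested.

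The translocon-associated protein complex, which helps chains with weak signals through the channel, has 4 subunits. Ssr4, its delta subunit, had values of -0.57, -0.23 and -0.50 in casein, 0.17 and 0.42 in casein plus E2, -0.04, -0.16 and 0.12 in soy, and 0.30, 0.04 and -0.08 in soy plus E2. The casein samples were the 3 lowest, and soy overlapped with soy plus E2. Its E2 average was 0.42 ± 0.10 (1.34-fold, adjusted p = 0.0309, limma). The other subunits Ssr1, Ssr2 and Ssr3 had averages of 0.04, 0.17 and 0.12 and were not called.

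Signal peptidase has either Sec11a or Sec11c as its catalytic subunit. Sec11c gave -0.09, 0.007 and -0.21 in casein, 0.37 and 0.34 in casein plus E2, -0.007, -0.38 and -0.03 in soy, and 0.28, 0.12 and -0.09 in soy plus E2. Of the 5 E2 samples 4 lay above all 6 others, and soy plus E2 pool 3 lay among them. The E2 average was 0.35 ± 0.10 (1.27-fold, adjusted p = 0.0462, limma). Sec11a, which serves the same step, averaged 0.08 and was not called, and the accessory subunits Spcs1, Spcs2 and Spcs3 averaged 0.17, 0.09 and 0.17.

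Genes of the signal recognition particle and of oligosaccharyltransferase held no call. Srp68, a subunit of the particle, had an average of only 0.11 ± 0.05 (adjusted p = 0.208, limma), yet its E2 samples (0.04 and 0.04 with casein, 0.09, 0.04 and 0.009 with soy) all lay above the others, the nearest of which was -0.009. Together with Xbp1 and Sec61b it was 1 of 3 members (of 47) with all E2 samples higher, and 0 had all lower, where 4.26% and 2.62% of all genes did. Srp72, its partner in the particle, averaged 0.14, and Srp9 and Srp14 averaged -0.21 and -0.07. In the glycosylation complex Rpn1 averaged -0.08 and Rpn2 -0.21 (unadjusted p = 0.0395 and adjusted p = 0.15, limma), and the 95% interval of Ddost was -0.28 to 0.28. Sec62 and Sec63, which serve the passage of finished chains, averaged 0.03 and 0.02. Their own probe sets disagreed in sign, with 0.17 and -0.10 for Sec62 and from -0.13 to 0.15 for Sec63.

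The folding genes had the smallest changes of the 4 classes, with a median size of 0.07 in either direction. None of 14 was called, and 2 passed an unadjusted p under 0.05 (14.3%, against 29% of all genes). The median change was 0.004, with 7 of 14 above 0. Hspa5, the main ER chaperone and the usual readout of the unfolded protein response, had values of 0.05, 0.27 and -0.05 in casein, 0.17 and -0.05 in casein plus E2, 0.23, -0.40 and -0.20 in soy, and 0.06, 0.05 and -0.26 in soy plus E2. High and low samples occurred in each group. The E2 average was 0.02 with a 95% interval of -0.26 to 0.30, and its sign turned on leaving out any of 5 samples. Hsp90b1, the ER form of Hsp90, and the lectin chaperones Calr and Canx averaged -0.01, -0.02 and -0.08. Like Hspa5, these 3 hold the ER stress element.

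Sdf2l1, which works with Hspa5 and its J-protein partners, had the smallest p of the class. It gave -0.49, -0.11 and -0.31 in casein, 0.44 and 0.32 in casein plus E2, -0.03, -0.48 and 0.11 in soy, and 0.17, 0.03 and -0.36 in soy plus E2. The casein plus E2 samples lay above all casein samples, as they did for 17 of the 47 members and 3202 of all 14217 genes. The soy-fed groups of Sdf2l1 overlapped. The average was 0.38 ± 0.14 (adjusted p = 0.102, limma), and it passed without soy plus E2 pool 3 (0.46, adjusted p = 0.0439) and with array weights (0.57, adjusted p = 0.0119). Pdia4, a protein disulfide isomerase, gave -0.05, -0.27 and 0.07 in casein, 0.34 and 0.48 in casein plus E2, -0.16, 0.009 and 0.18 in soy, and -0.04, -0.03 and -0.009 in soy plus E2. The casein plus E2 samples were the highest of all, and the average was 0.22 ± 0.09 (adjusted p = 0.115, limma), or 0.20 with array weights (adjusted p = 0.0456). With those weights 3 of the 14 folding genes were called higher and 0 lower. The weights also raised the calls over all 14217 genes, in either direction, from 1741 in the main fit to 3318. The 3 folding calls were therefore not read as a response of that class. The other isomerases P4hb, Pdia6 and Pdia3 averaged 0.16, 0.07 and -0.03, and the 2 probe sets of Pdia3 disagreed (-0.25 and 0.18). Among the co-chaperones of Hspa5, Dnajb9 averaged -0.12, Dnajb11 -0.07 and Dnajc3 0.07. Hyou1, its nucleotide exchange factor, averaged -0.18, and the stress-induced Creld2 averaged 0.03.

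Of the 7 stress-response genes 3 were called (42.9%, against 12.2% of all genes), in opposite directions, so the class had no common direction. Its median change was -0.10, and 2 of 7 lay above 0. Xbp1 gave -0.33, -0.29 and -0.13 in casein, 0.04 and 0.04 in casein plus E2, -0.002, -0.27 and -0.37 in soy, and 0.36, 0.26 and 0.10 in soy plus E2. All 5 E2 samples lay above all 6 others, narrowly above soy pool 1. The E2 average was 0.37 ± 0.09, 1.29-fold (adjusted p = 0.0263, limma). The value is of 1 probe set, and the splicing of Xbp1 RNA by Ern1, which makes its active form, was not analysed here.

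Ddit3 had values of 0.41, 0.52 and 0.11 in casein, -0.46 and -0.33 in casein plus E2, 0.25, 0.14 and -0.02 in soy, and 0.009, -0.14 and -0.009 in soy plus E2. The casein plus E2 samples lay far below the casein samples. A gap in that direction, of any width, was found in 3 of the 47 members and 2460 of all 14217 genes. Soy pool 3 of Ddit3 fell among the soy plus E2 samples. Ddit3 fell by 0.46 ± 0.09 in the average (adjusted p = 0.0167, limma), the smallest adjusted p among the members. Herpud1 gave -0.12, 0.04 and 0.21 in casein, -0.34 and -0.44 in casein plus E2, 0.44, 0.22 and 0.38 in soy, and -0.04, -0.44 and 0.06 in soy plus E2. The 3 lowest samples all had E2, and soy plus E2 pools 1 and 3 overlapped with casein. It fell by 0.46 ± 0.11 (adjusted p = 0.0264, limma).

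The sensors and the remaining effectors had no call. Atf4, whose protein rises when translation is slowed and which is known to raise Ddit3, gave 0.10, 0.002 and 0.09 in casein, -0.14 and -0.08 in casein plus E2, -0.002, 0.07 and -0.10 in soy, and 0.05, 0.04 and -0.03 in soy plus E2. Its samples overlapped between E2 and vehicle, and the average was -0.07 ± 0.06 (adjusted p = 0.459, limma). Atf6 averaged 0.05, Manf, an ER protein released under stress, -0.10, and Edem1, which sends misfolded glycoproteins to degradation, -0.19. Over the 15 members that are textbook targets of the unfolded protein response, 1 was called higher (Xbp1) and 2 lower (Ddit3 and Herpud1). Together they are 20% of the 15, where 12.2% of all genes were called. The median change of the 15 was -0.01. Among the 7 holders of the ER stress element only Xbp1 was called, and the other 6 had averages from -0.08 to 0.07. Of the 3 holders of the shorter element Herpud1 was called lower, and Dnajb11 and Hyou1 averaged -0.07 and -0.18 without a call.

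**Figure D3:**
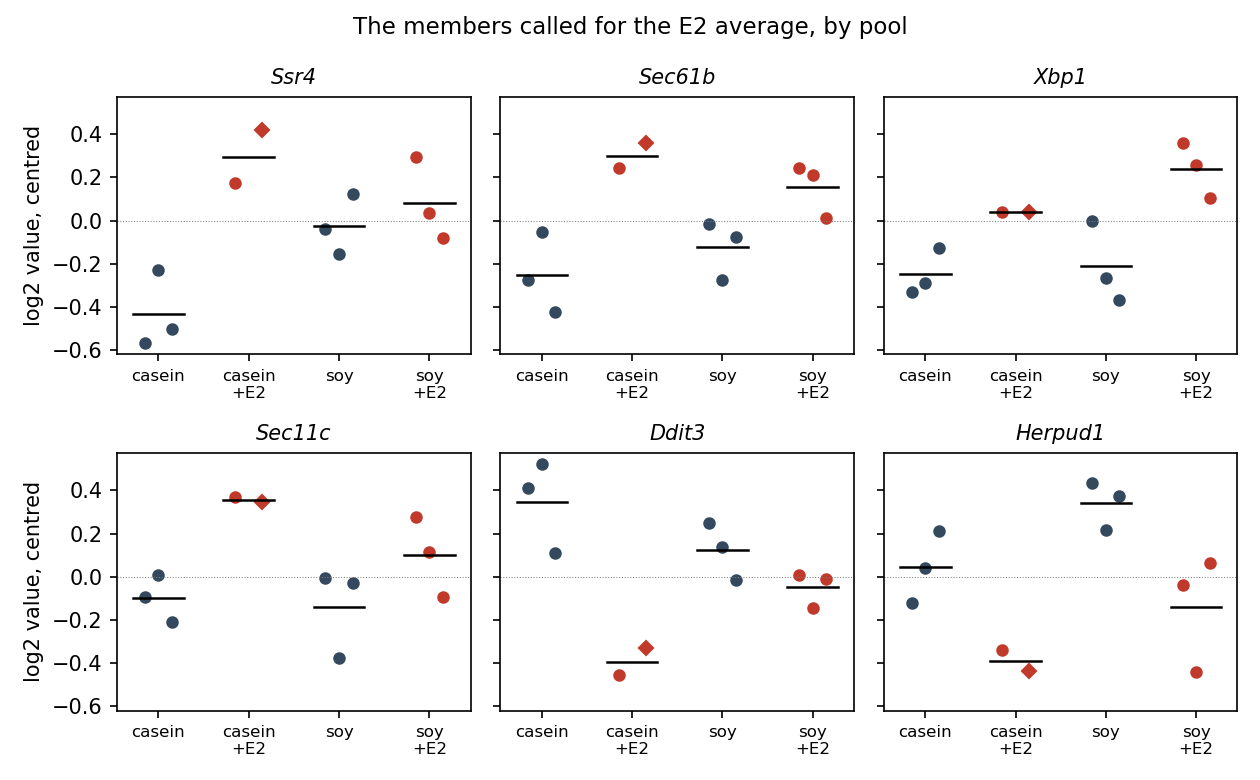
Centred log2 values of the 6 called genes in each of the 11 samples by group, with the group means. Sec61b, Ssr4, Sec11c and Xbp1 have higher means with E2 in both diets and Ddit3 and Herpud1 lower ones, and the gap of Ssr4 and of Ddit3 is wider in the casein-fed groups (0.73 and -0.74) than in the soy-fed groups (0.11 and -0.17).

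Genes of ER exit and retrieval were few and the most variable, with a median SD within groups of 0.24, against 0.14 over the 47 members and 0.16 over all genes. None of 5 was called and none reached an unadjusted p under 0.05, and the median change was -0.08. Sec23b, of the COPII coat that buds vesicles from the ER, had values of -0.09, -0.09 and -0.11 in casein, 0.16 and 0.21 in casein plus E2, -0.05, 0.005 and 0.23 in soy, and 0.25, -0.07 and -0.005 in soy plus E2. Sec24d, the cargo-binding coat subunit, gave -0.06, 0.48 and -0.05 in casein, 0.20 and -0.04 in casein plus E2, 0.45, 0.12 and 0.04 in soy, and -0.44, -0.31 and 0.07 in soy plus E2. High and low samples of both genes were found with and without E2, and the averages were 0.14 ± 0.08 (adjusted p = 0.291) and -0.24 ± 0.14 (adjusted p = 0.31, limma). Sec31a of the outer coat, Kdelr2, the receptor that returns chaperones to the ER, and the cargo receptor Lman1 averaged -0.07, -0.08 and -0.15.

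The 6 calls of the E2 average rested on the few pools. Without casein plus E2 pool 1, or without the averaged pair, 0 of 47 members were called, with adjusted p from 0.0541 to 0.143 for the 6 genes, and that group then held 1 sample, assumed to vary like the others. Calls over all genes fell in both settings as well, so the loss was not particular to these genes. Leaving out pool 1 of soy plus E2 gave 1 call and leaving out its pool 2 gave 2. In those fits 642 and 640 of all genes were called, against 1741 in the main fit. The count of members was 3 without casein pool 1, casein pool 2 or soy pool 2, where 1228, 899 and 1123 of all genes were called. Over 13 settings that left out 1 array or the pair, the call held in 11 for Ddit3, 9 for Sec61b, 8 for Herpud1, 6 for Ssr4, 6 for Xbp1 and 4 for Sec11c. Ddit3 was lost only without a casein plus E2 sample (0.073 without pool 1 and 0.0541 without the pair), and Sec61b also without soy plus E2 pool 1 (0.0576) or 2 (0.0581). Herpud1 was also lost without casein pool 2 (0.0536), soy pool 3 (0.0505) or soy plus E2 pool 1 (0.0539). Xbp1 was also lost without casein pool 1 (0.0528) or 2 (0.0546), soy pool 2 (0.0539), or soy plus E2 pool 1 (0.0658) or 2 (0.0654). Ssr4 was also lost without casein pool 1 (0.0614) or 3 (0.05 after rounding), soy pool 2 (0.0639), or soy plus E2 pool 1 (0.0697) or 2 (0.0672). Sec11c was also lost without any casein pool (0.0622 to 0.0798), soy pool 2 (0.0761) or 3 (0.0585), or soy plus E2 pool 1 (0.104) or 2 (0.0998). The sizes moved little, as in Xbp1, from 0.33 to 0.42, and Ddit3, from -0.52 to -0.41.

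The changes of the 6 genes within each side of the spike-in split are given as values only. They reuse the arrays on which the genes were called, some with 1 array in an arm, so their signs are no further evidence. Among the arrays with positive spike-in means, casein plus E2 (1 array) minus casein (3 arrays) was 0.29 for Xbp1, 0.49 for Sec61b, 0.60 for Ssr4, 0.47 for Sec11c, -0.80 for Ddit3 and -0.38 for Herpud1. Soy plus E2 minus soy on that side (1 array each) was 0.26, 0.23, 0.07, 0.12, -0.39 and -0.88 in the same order. On the negative side (2 arrays each) it was 0.55, 0.30, 0.12, 0.30, -0.06 and -0.28. No casein array fell on the negative side, so the casein contrast had no value there.

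In casein-fed rats E2 raised Ssr4 and lowered Ddit3, and no other member was called. The calls were thus 1 higher and 1 lower of 47 genes, where 1.48% of all genes were called higher and 0.95% lower. Ssr4 rose by 0.73 ± 0.15 (1.66-fold, adjusted p = 0.0423, limma), and Ddit3 fell by 0.74 ± 0.13 (1.67-fold, adjusted p = 0.0335). An unadjusted p under 0.05 was reached by 11 higher and 2 lower members (27.7%, against 19.6% of all genes). The 11 included 7 of the 21 translocation genes, among them Sec61b (0.55), Sec11c (0.45), Ssr2 (0.43), Spcs1 (0.37), Spcs3 (0.34) and Sec61g (0.30), and also Sdf2l1 (0.68) and Pdia4 (0.49). The adjusted p of these 8 ran from 0.0636 for Sec61b to 0.196 for Sec61g and Spcs3 (limma). Class medians were 0.15 for translocation, 0.07 for folding, -0.11 for the stress response and -0.04 for ER exit, against 0.02 over all genes. The count of 2 fell to 0 without casein pool 1 or 2, soy pool 2, soy plus E2 pool 2, casein plus E2 pool 1 or the averaged pair, and to 1 without casein pool 3 or soy pool 3. Fitted to the casein-fed groups alone it was 0, and with 12 separate arrays, the near-identical pair counted as 2 samples, it was 7. Over all genes the main fit called 346, and 17 and 12 were called without casein pool 1 or 2. Without soy pool 2 or soy plus E2 pool 2 they were 68 and 140. Without casein pool 3 or soy pool 3 they were 157 and 230. Calls over all genes also fell without casein plus E2 pool 1 or the averaged pair, which left 1 sample in that group. The number over all genes was 200 with the casein-fed groups alone and 1369 with 12 separate arrays.

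In soy-fed rats none of the 47 members was called, where 0.183% of all genes were called higher and 0.0352% lower. An unadjusted p under 0.05 was reached by 3 higher members, Xbp1, Sec61b and Srp72, and by 4 lower, Herpud1, Dnajb9, Sec24d and Rpn2 (limma), which is 14.9% of the members, against 20.6% of all genes. Xbp1 had the smallest adjusted p, 0.101, with a change of 0.45 ± 0.11, and Herpud1 followed with -0.48 ± 0.14 (adjusted p = 0.124). Without soy plus E2 pool 3 the count was 1, and 760 of all genes were called, against 31 in the main fit. Medians were -0.01 for translocation, -0.07 for folding, -0.10 for the stress response and -0.19 for ER exit, and 16 of 47 members (34%) lay above 0, against 49.5% of all genes.

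**Figure D4:**
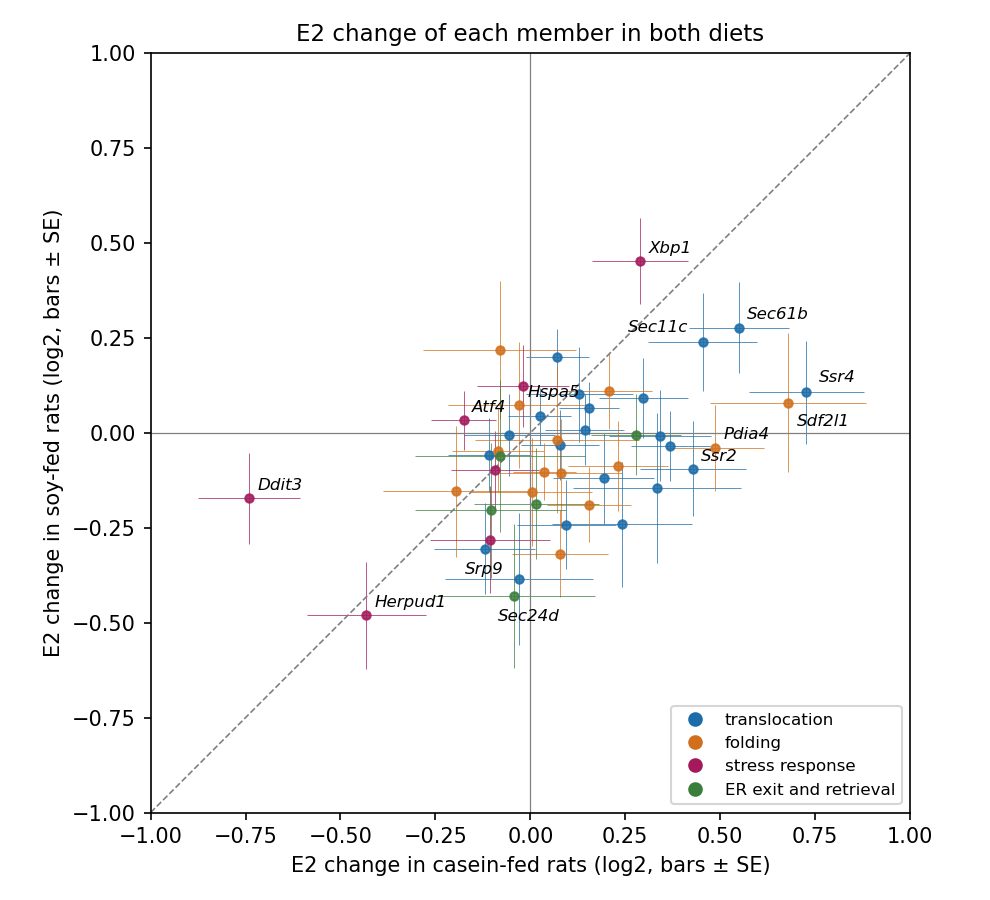
E2 change of each of the 47 genes in casein-fed rats (horizontal) against soy-fed rats (vertical), in log2 with standard errors, coloured by class. Xbp1 and Herpud1 lie near the diagonal, and Ssr4, Sdf2l1, Pdia4 and Ddit3 lie near the horizontal line of no change in soy-fed rats.

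Whether the E2 change differed between the diets was tested as the interaction, the change in soy-fed minus that in casein-fed rats. It called 0 of 47 members, and 0% of all genes in either direction. At an unadjusted p under 0.05 by limma, 1 member was above 0 and 6 below (14.9%, against 6.53% of all genes). Ddit3 had the smallest adjusted p (0.604), with a difference of 0.57 and a 95% interval of 0.17 to 0.97. Ssr4 (-0.62), Pdia4 (-0.53), Ssr2 (-0.52), Spcs1 (-0.40), Dnajb9 (-0.40) and Calr (-0.34) were the 6 below 0. The median difference was -0.16 over the members and -0.01 over all genes, and 13 of 47 members (27.7%) and 47.1% of all genes lay above 0. These genes share their samples, so the counts are no independent support for each other. For Xbp1 and Herpud1 the differences were 0.16 (95% interval -0.22 to 0.54) and -0.05 (-0.52 to 0.42), which leaves room for a difference of the size of the E2 changes themselves.

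The diet itself, compared at each E2 level, gave no call among these genes. Soy minus casein without E2 called 0 of 47 members and 0% of all genes, and 3 members, all higher, reached an unadjusted p under 0.05 (limma), Dnajb9 (0.39), Ssr4 (0.41) and Spcs1 (0.22). These 3 are 6.38% of the members, against 10.4% of all genes, and their smallest adjusted p was 0.419. Dnajb9, a J-protein that binds Hspa5, gave 0.31, 0.17 and 0.29 in soy and -0.35, -0.07 and 0.03 in casein. The vehicle groups thus did not overlap. Soy lay wholly above casein in 7 of the 47 members and in 1107 of all 14217 genes. The values of Dnajb9 under E2 were -0.05 and -0.05 with casein and -0.03, -0.21 and 0.06 with soy. Soy minus casein under E2 called 0 members higher and 0 lower, against 0% and 0.00703% of all genes. An unadjusted p under 0.05 was reached there by Ddit3 above 0 (0.35) and by Pdia4 (-0.44), Ssr2 (-0.41), Pdia6 (-0.32) and Sec63 (-0.25) below (limma), with adjusted p of at least 0.699. They are 10.6% of the members, against 5.1% of all genes. The median difference was -0.13 over the members and -0.004 over all genes, and 11 of 47 (23.4%) lay above 0, against 48.7% of all genes. Every one of these contrasts reuses the 4 groups, so the soy and E2 values are not independent of each other.

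Across samples the 47 genes varied about as much as other genes, with a median range of 0.56 over the 11 samples, against 0.60 over all genes. Translocation genes had the smallest median range (0.49), folding genes 0.64, stress-response genes 0.73 and ER exit genes 0.74. The widest single ranges were those of Ssr4 (0.98), Ddit3 (0.97), Sdf2l1 (0.93), Sec24d (0.92) and Lman1 (0.90). Casein pool 2 held the highest value of 11 members (23.4%, against 16.8% of all genes), and casein plus E2 pool 1 that of 8 (17%, against 10.9%). Soy pool 2 and soy plus E2 pool 2 each held the lowest value of 8 (17%, against 7.04% and 9.88% of all genes). Soy pool 3 was the highest sample for 8 members (17%, against 12.6% of all genes), among them Creld2 (0.50), Edem1 (0.46), Spcs2 (0.40), Hsp90b1 (0.32), Canx (0.30) and Spcs3 (0.26). The mean of the plasma cell markers (6 of 8 measured) was also highest there. Of these markers Pou2af1 stood at 3.49, Mzb1, an ER protein of antibody-secreting cells, at 3.33, Jchain, the joining chain of antibodies, at 2.35, Tnfrsf17 at 0.77 and Prdm1 at 0.40. Sdc1, which epithelial cells also express, was at its lowest there, at -1.10. The plasma cell mean ran from -0.69 to -0.51 in casein, -0.48 to 0.26 in casein plus E2, -0.87 to 1.54 in soy and -0.49 to 0.46 in soy plus E2. Of the other soy pools, pool 2 had a mean of 0.43 and held the highest value of 0 members and the lowest of 8. Soy pool 1, at -0.87, held the highest value of 5 members and the lowest of 3. The part of plasma cells in these values was not tested.

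**Figure D5:**
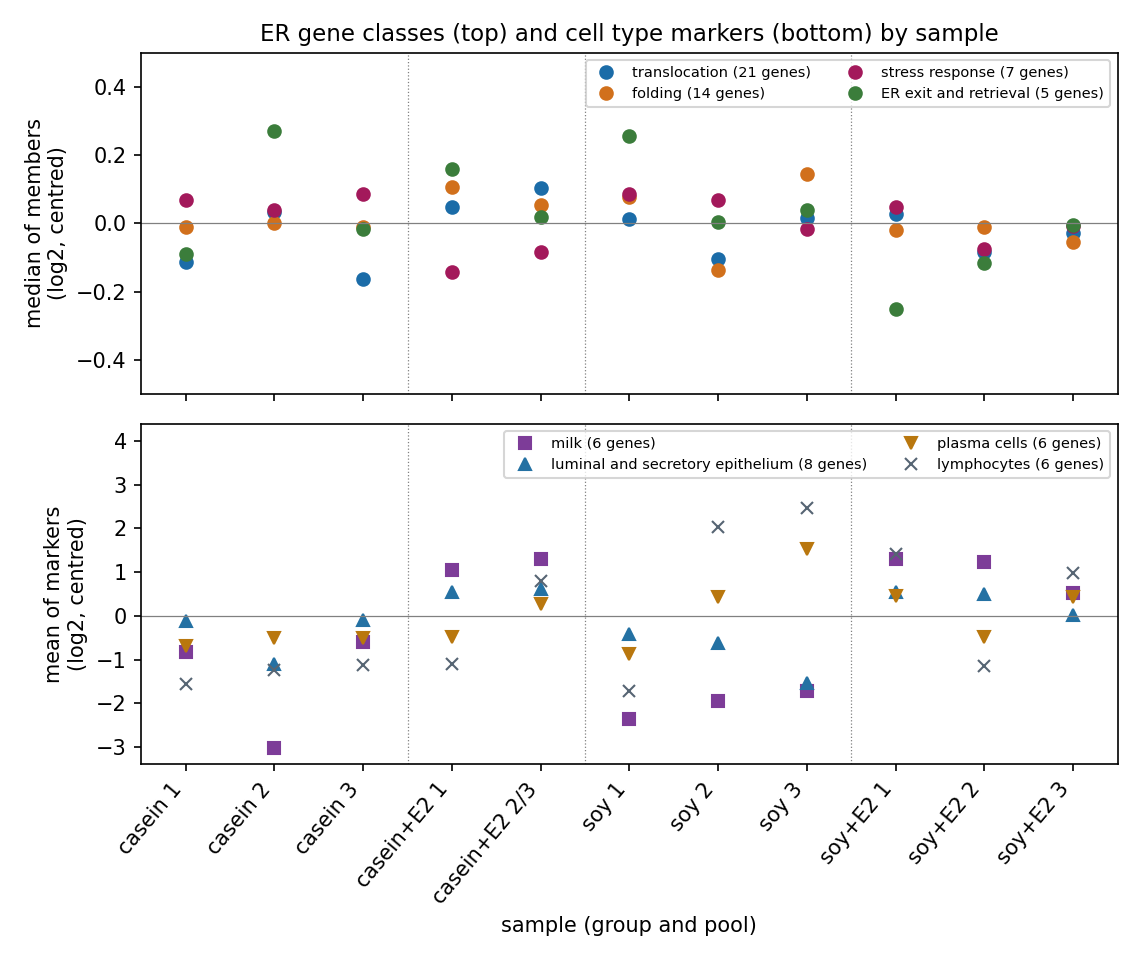
Median centred log2 value of each ER gene class (top) and mean of the milk, luminal, plasma cell and lymphocyte markers (bottom) in each of the 11 samples. Milk and luminal markers are above 0 in the 5 samples with E2 and below 0 in the 6 without, while the class medians stay between -0.25 and 0.27.

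A wider list of ER genes, 80 symbols of the same pathways of which 75 were measured, gave larger single changes than the members. In the E2 average 2 were called higher and 1 lower (4%, against 12.2% of all genes). Fkbp11, a peptidyl-prolyl isomerase of secretory cells, gave -0.10, -0.28 and -0.15 in casein, 1.13 and 1.15 in casein plus E2, -0.17, -0.64 and -0.70 in soy, and 0.84, 1.42 and 0.10 in soy plus E2. All E2 samples were higher than all others, and it rose by 1.30 ± 0.21 (adjusted p = 0.0101, limma). Prdx4, the ER peroxiredoxin, rose by 0.87 ± 0.11 (adjusted p = 0.00489), with 1.29 and 1.04 in casein plus E2 and at most 0.31 in every other sample. In casein-fed rats alone it rose by 1.39 ± 0.16 (adjusted p = 0.0114). Its change in soy-fed rats was 0.34 ± 0.15 (adjusted p = 0.226, limma), and its interaction of -1.05 was not called (adjusted p = 0.477). Pdia5, a disulfide isomerase, fell by 0.64 ± 0.12 (adjusted p = 0.0156), from values of 0.08 to 0.70 without E2 to values of -0.53 to -0.08 with it, and was not called without the averaged pair (-0.53, adjusted p = 0.0658). The median of the 75 was -0.006, and the calls of Fkbp11 and Prdx4 held in all 13 settings with an array or the pair left out.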

How the data were processed

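RNA from 12 pools in 4 groups of 3 was measured on Affymetrix rat arrays from 8 µg each, per the labels' protocols. The titles gave each sample's group and pool number. The authors deposited 1 table of 31099 probe sets, read as log2 from their widest range (9.85) and centred by the authors on each probe set's median (largest 5e-07). GCOS is named without a version in the submitters' processing notes. Summarisation, normalization and log base were not given in the sources used here, so folds depend on reading the values as log2.

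Of the probe sets 20826 carried 1 gene, 436 several, 9780 were unnamed here and 57 were controls. Probe sets of a gene were averaged, giving 14217 genes without a filter. Symbols were those of the platform annotation, and 20758 probe sets were found by identifier in the GRCr8 gene table, with 0 symbols changed. A model of 4 group means on 11 samples with 7 residual degrees of freedom was fitted in limma 3.58.1 (R 4.3.3, eBayes without a trend), with 6 two-sided contrasts. Errors are standard errors of that fit and intervals are 95%. The number of arrays limits the precision.

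The members and gene lists were chosen with earlier results of these data known. Genes with values in every sample were those called, 6 fixed genes except Ern1, which had no probe set, and the 2 of smallest p in a class without a call. Ssr2, Srp68, Dnajb9 and the further pathway genes were named once their values had been seen. The fit was tested on simulated data with known changes. Alternatives were quantile normalization, the probe set of largest SD, array weights, the contrast's groups alone, pool number as a block, 12 separate arrays, the spike-in split as a term and leaving out each sample.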

Additional observations from a re-analysis of the deposited data

How the results depend on the processing

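For the E2 average the count of 6 called members ran from 0 to 7 with 1 array or the averaged pair left out and was 12 with array weights, under which 3318 of all genes were called. For E2 in casein-fed rats the count of 2 ran from 0 to 3 with samples left out. It was 7 with 12 separate arrays, 4 with 12 separate arrays and the replicate block, and 8 with array weights. Those settings called 1369, 821 and 1408 of all genes. The count was 0 with the casein-fed groups alone, and 1 with the probe set of largest SD or a term for the spike-in split. Over all genes the latter settings called 200, 284 and 246, against 346 in the main fit. For E2 in soy-fed rats the count of 0 ran from 0 to 1 with samples left out and was 3 with array weights. Those weights called 2034 of all genes in that contrast, against 31 in the main fit. For soy without E2 the count of members was 5 with array weights. Neither count was read as a response of these genes. The counts for soy under E2 and for the interaction were 0 in every alternative run. The median change of the folding genes was 0.088 with array weights, under which 3 of them were called (Sdf2l1 at 0.57 and Pdia4 at 0.20 among these) and Hspa5 stood at 0.158. Sec61a1 turned from -0.031 to 0.055 with array weights and ran from -0.075 to 0.017 with samples left out, and Hspa5 ran from -0.047 to 0.108 with samples left out. Sec11c was not called with the probe set of largest SD (adjusted p = 0.0531) or quantile normalization (0.0538). The cause of these shifts was not tested. Same-numbered pools of different groups did not deviate together (r from -0.42 to 0.46 in 18 pairs, 5 above 0.1), so the numbers were not taken to pair samples, and with the replicate block 6 members were called in the E2 average. Fits of the contrast's groups alone do not apply to the average and the interaction, which use all groups. Signal over background could not be judged from centred values.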
